A study of Homo sapiens with 11 samples.

Results

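The genes described here are contractile and cytoskeletal genes that mark differentiated smooth muscle, with MYOCD, which encodes a transcriptional cofactor of cardiac and smooth muscle. They were chosen by name from a list of 10: ACTA2, ACTG2, TAGLN, MYH11, CNN1, LMOD1, SMTN, MYOCD, CALD1 and MYLK. The rule names the genes and sets no threshold on a measured value. Of the 10, 9 were measured among the 19990 genes of the count table, and MYH11 was not analysed here. All 9 passed the filter on low counts.

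Smooth muscle contracts when a rise in calcium activates myosin light chain kinase, which phosphorylates the regulatory light chain of myosin so that myosin can pull on actin filaments. Many genes of this apparatus carry CArG boxes, the DNA element bound by serum response factor (SRF), and are switched on when SRF pairs with myocardin or with the related cofactors MRTFA and MRTFB. Embryonic cardiomyocytes transcribe several of these genes for a time before the cardiac isoforms take over, and in the adult heart they mark vascular smooth muscle, pericytes and activated fibroblasts.

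The cells were cardiomyocytes made in one differentiation from passage 63 of WTC11, an established line of human induced pluripotent stem cells, with CHIR99021, which activates Wnt signalling, and then IWP2, which blocks Wnt secretion. Poly(A) RNA was sequenced from wells of that differentiation held in B27 medium with insulin: 4 wells at Day 30, 3 at Day 60 and 4 at Day 113. Treatment and medium were the same in all 3 groups, and only the day differed. The wells are replicates of one differentiation of one line, so p-values measure only the spread between these wells, and a day cannot be told apart from its collection.

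Each library held between 24.1 and 34.5 M counts (M, units of 1000000). In all 15 same-day pairs of wells the spread exceeded sampling noise (chi-square over degrees of freedom, 11.4 to 84.0). Markers of cardiomyocytes summed to 28516 to 40300 counts per 1000000 counts (CPM) at Day 30, 34217 to 39517 at Day 60 and 29232 to 31897 at Day 113, so the labelled cell type was present at every day. Levels are CPM unless a level per length is named.

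Short stretches upstream of annotated starts are shown first because they hold the CArG boxes found among these genes. RefSeq windows of GRCh38.p14, from 250 bases before to 50 after a start, were matched for 7 of the 9 measured genes (14 windows), and TAGLN and MYOCD had none. Capitals mark the CArG box, a CC and a GG around 6 bases that are A or T, in ACTG2, SMTN and MYLK. In ACTA2 they mark CArG-like elements, in which 1 of the 6 inner bases is C or G. Each stretch reads 5′ to 3′ on the strand of its gene.
ACTA2, chr10:88952785-88952894, minus strand, 121 to 12 bases upstream: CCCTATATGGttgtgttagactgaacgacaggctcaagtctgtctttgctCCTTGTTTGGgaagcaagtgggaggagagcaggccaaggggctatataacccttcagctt
ACTG2, chr2:73892848-73892957, plus strand, 160 to 51 bases upstream: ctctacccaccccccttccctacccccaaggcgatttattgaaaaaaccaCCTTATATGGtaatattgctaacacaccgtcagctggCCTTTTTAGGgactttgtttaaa
SMTN, chr22:31084902-31084995, plus strand, 94 to 1 bases upstream: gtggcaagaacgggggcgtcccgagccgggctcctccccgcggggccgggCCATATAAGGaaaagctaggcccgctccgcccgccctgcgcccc
MYLK, chr3:123620583-123620692, minus strand, 144 to 35 bases upstream: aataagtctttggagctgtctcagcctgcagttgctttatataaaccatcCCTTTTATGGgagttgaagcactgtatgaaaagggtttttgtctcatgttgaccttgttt

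A CArG box was found in 3 of the 14 windows and in 3 of the 7 genes, against 1.29% of 35116 windows of the same length over all genes. ACTG2 held 2 boxes, while SMTN held 1 in 1 of its 4 windows and MYLK held 1. The MYLK window lies at an internal start near the 3′ end of the gene, the start known as that of telokin, a short non-kinase product of the locus. A CArG-like element was found in 2 of the 14 windows, those of 1 ACTA2 start and 1 CALD1 start, against 6.94% of all windows, and this wider search was added after the ACTA2 window had been seen. CATTCC, the core of the MCAT element bound by TEAD factors, searched on both strands, was found in 6 of the 14 windows against 14% of all windows. It overlapped no CArG box or CArG-like element in these windows. A match is a run of letters and was not tested as a site.

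Between Day 30 and Day 113, 7 of the 9 genes rose, MYOCD fell and CNN1 did not pass the test. Between Day 60 and Day 113, 6 genes rose (ACTA2, ACTG2, TAGLN, LMOD1, CALD1 and MYLK), and between Day 30 and Day 60 SMTN was the 1 gene that passed the test. A gene was called at a Benjamini-Hochberg adjusted p under 0.05 in edgeR's quasi-likelihood test. Of all genes tested, 10.3% were called at Day 60 against Day 30 (4.39% higher and 5.91% lower), 24.0% at Day 113 against Day 60 (12.9% higher and 11.1% lower) and 34.5% at Day 113 against Day 30 (17.3% higher and 17.2% lower). The wells of the days compared did not overlap for 3 of the 9 genes at Day 60 against Day 30 (SMTN higher, TAGLN and MYOCD lower), against 24.8% of all genes. They did not overlap for 5 genes at Day 113 against Day 60 (ACTA2, ACTG2, TAGLN, LMOD1 and CALD1), against 30.6% of all genes, and for 5 at Day 113 against Day 30 (ACTA2, ACTG2, SMTN, CALD1 and MYLK), against 35.1%, all of them higher at Day 113. The median log2 fold change of the 9 genes was 0.0050, 0.71 and 0.81 in those comparisons, beside -0.011, 0.0016 and -0.018 over all genes. A change on any day was called for 8 of the 9 genes, against 37.1% of all genes. In bulk RNA, more cells of a type and more RNA per cell cannot be told apart.

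**Figure D1:**
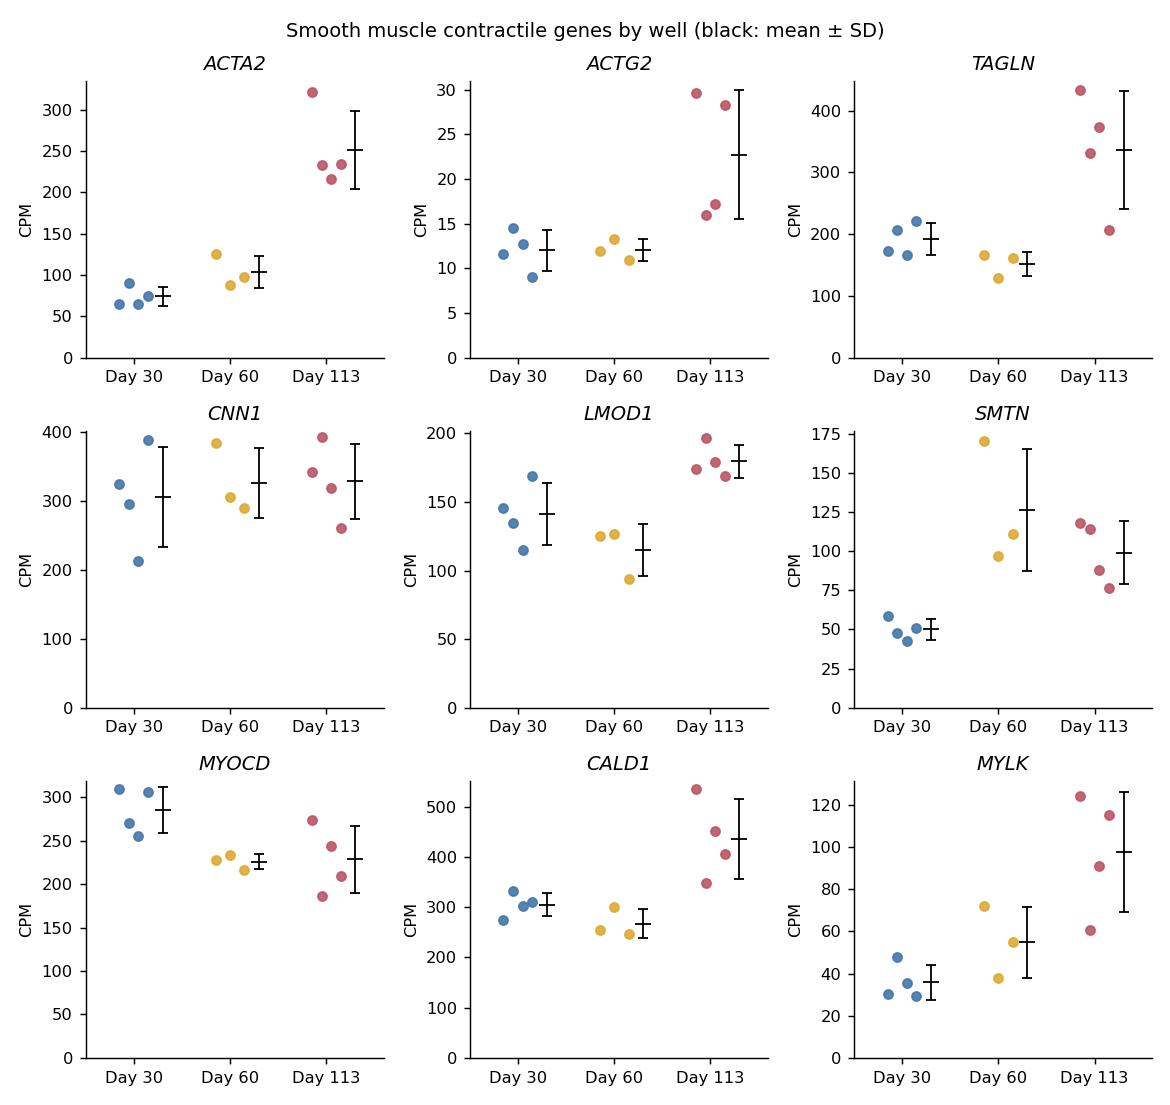
Level of each gene in CPM (vertical axis) in every well at Day 30, Day 60 and Day 113 (horizontal axis), with black bars for the mean ± SD. The Day 113 wells of ACTA2 lie between 216 and 322 CPM, above all wells of the earlier days, while the wells of CNN1 overlap at all 3 days.

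Among the 9 genes, ACTA2 had the largest fold change between Day 30 and Day 113. ACTA2 encodes alpha smooth muscle actin, the thin filament actin of vascular smooth muscle, and lies at chr10:88935074-88991339 on the minus strand. ACTA2 stood at 65.5, 90.4, 65.5 and 75.1 CPM at Day 30, at 126, 88.3 and 97.7 at Day 60 and at 322, 233, 216 and 235 at Day 113. All Day 113 wells were above all earlier wells, and the Day 30 and Day 60 wells overlapped. The means were 74.1 ± 11.8 (SD, n = 4), 104 ± 19.6 (SD, n = 3) and 252 ± 47.6 CPM (SD, n = 4). The rise from Day 30 to Day 113 was 3.39-fold (log2 1.76 ± 0.15 SE, adjusted p = 3.4e-07), of which log2 1.27 ± 0.16 fell after Day 60 (adjusted p = 6.1e-05). Before Day 60 the difference of log2 0.49 ± 0.16 had an adjusted p of 0.058. It passed the threshold under 9 of 21 alternatives, over which its adjusted p ran from 0.018 to 0.25.

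ACTG2 encodes gamma smooth muscle actin, the enteric isoform, and lies at chr2:73892314-73919865 on the plus strand. The CArG boxes printed above lie within this span, upstream of the RefSeq start. ACTG2 stood at 11.6, 14.5, 12.7 and 9.07 CPM at Day 30, at 12.0, 13.3 and 10.9 at Day 60 and at 29.6, 15.9, 17.1 and 28.2 at Day 113. Every Day 113 well was above every earlier well, but replicates 1 and 4 were well apart from replicates 2 and 3. ACTG2 rose 1.89-fold from Day 30 to Day 113 (log2 0.92 ± 0.21, adjusted p = 0.0026) and by log2 0.92 ± 0.23 from Day 60 (adjusted p = 0.0081). From Day 30 to Day 60 the difference was log2 0.0050 ± 0.22 (adjusted p = 0.99). The actin genes have near-identical coding sequences, so reads may have been split between ACTA2, ACTG2 and the cardiac actin ACTC1, and their counts are uncertain to that extent.

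Actin-binding genes followed 3 courses. TAGLN encodes transgelin (SM22 alpha), which cross-links actin, and lies at chr11:117199321-117204782 on the plus strand. TAGLN stood at 173, 207, 167 and 222 CPM at Day 30, at 166, 129 and 161 at Day 60 and at 433, 331, 374 and 206 at Day 113. The Day 60 wells were below all others, by a narrow margin to Day 30, and replicate 4 of Day 113 lay within the Day 30 range. TAGLN rose 2.21-fold from Day 60 to Day 113 (log2 1.15 ± 0.19, adjusted p = 0.00057) and 1.75-fold from Day 30 (log2 0.81 ± 0.17, adjusted p = 0.0020), and the earlier interval gave log2 -0.34 ± 0.19 (adjusted p = 0.31). The change differed between the intervals by log2 1.49 ± 0.35 (adjusted p = 0.015), a call that was lost without Day 60 replicate 1 (0.053), replicate 2 (0.074) or replicate 3 (0.058).

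CALD1 encodes caldesmon, an actin-binding inhibitor of the myosin ATPase with smooth muscle and non-muscle isoforms, which gene counts do not separate, and lies at chr7:134744252-134970728 on the plus strand. CALD1 stood at 276, 332, 302 and 310 CPM at Day 30, at 254, 300.1 and 247 at Day 60 and at 536, 347, 452 and 407 at Day 113. The Day 113 wells were above all earlier wells, and the first 2 groups overlapped. CALD1 rose 1.63-fold from Day 60 (log2 0.71 ± 0.13, adjusted p = 0.0013) and 1.43-fold from Day 30 (log2 0.51 ± 0.12, adjusted p = 0.0037). The intervals differed by log2 0.90 ± 0.24 (adjusted p = 0.027), which was lost without Day 30 replicate 2 (0.065), Day 60 replicate 1 (0.14) or Day 60 replicate 3 (0.16).

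LMOD1 encodes leiomodin 1, which nucleates actin filaments in smooth muscle, and lies at chr1:201896452-201946588 on the minus strand. LMOD1 stood at 145, 135, 115 and 169 CPM at Day 30, at 125, 127 and 93.6 at Day 60 and at 174, 197, 179 and 169 at Day 113. Day 113 was above every Day 60 well and met the highest Day 30 well at 169 CPM. LMOD1 rose 1.56-fold from Day 60 (log2 0.64 ± 0.13, adjusted p = 0.0027). From Day 30 it rose 1.27-fold (log2 0.35 ± 0.12, adjusted p = 0.036), a call lost without Day 30 replicate 1 (0.064), 2 (0.080) or 3 (0.12) or Day 113 replicate 2 (0.075) or 3 (0.064). The intervals differed by log2 0.93 ± 0.24 (adjusted p = 0.023), lost without Day 60 replicate 1 (0.067) or 3 (0.18).

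CNN1 and SMTN took other courses. CNN1 encodes calponin 1, a thin filament protein that restrains the myosin ATPase, and lies at chr19:11538717-11550323 on the plus strand. CNN1 stood at 324, 296, 213 and 388 CPM at Day 30, at 384, 305 and 289 at Day 60 and at 342, 392, 319 and 261 at Day 113. The wells of all 3 days overlapped, with means of 305 ± 72.4 (SD, n = 4), 326 ± 50.8 (SD, n = 3) and 328 ± 54.4 CPM (SD, n = 4). The fitted difference between Day 113 and Day 30 was log2 0.10 ± 0.16 (adjusted p = 0.66), and its direction turned when Day 30 replicate 3 was left out (log2 -0.034).

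SMTN encodes smoothelin, a cytoskeletal protein of fully differentiated contractile smooth muscle, and lies at chr22:31064105-31104757 on the plus strand. SMTN stood at 58.6, 48.0, 42.9 and 51.0 CPM at Day 30, at 170.2, 97.1 and 111 at Day 60 and at 118, 114, 88.1 and 76.2 at Day 113. All later wells were above all Day 30 wells, while Day 60 and Day 113 overlapped. SMTN rose 2.52-fold by Day 60 (log2 1.33 ± 0.18, adjusted p = 0.00027) and was 1.98-fold above Day 30 at Day 113 (log2 0.98 ± 0.17, adjusted p = 0.00038), with log2 -0.35 ± 0.18 between Day 60 and Day 113 (adjusted p = 0.18). The intervals differed by log2 -1.68 ± 0.31 (adjusted p = 0.0040), opposite in sign to TAGLN, CALD1 and LMOD1. These 4 of 9 genes were the ones called for a difference between intervals, against 9.34% of all genes (4.97% above 0 and 4.38% below).

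The kinase rose and the cofactor fell between Day 30 and Day 113. MYLK encodes myosin light chain kinase, whose long and short kinases and telokin are summed in a gene count, and lies at chr3:123610049-123884331 on the minus strand. MYLK stood at 30.4, 47.8, 35.7 and 29.3 CPM at Day 30, at 71.8, 38.0 and 54.7 at Day 60 and at 124, 60.4, 91.1 and 115 at Day 113. Day 113 did not overlap Day 30, and Day 60 overlapped both. MYLK rose 2.73-fold from Day 30 to Day 113 (log2 1.45 ± 0.22, adjusted p = 0.00013). From Day 60 it rose 1.78-fold (log2 0.83 ± 0.24, adjusted p = 0.020), which was lost without Day 60 replicate 2 (0.097) or 3 (0.068) and with robust dispersions (0.061).

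MYOCD encodes myocardin, the SRF cofactor of cardiac and smooth muscle, and lies at chr17:12665890-12768949 on the plus strand. MYOCD stood at 310, 270, 255 and 306 CPM at Day 30, at 228, 233 and 216 at Day 60 and at 274, 186, 244 and 209 at Day 113. The Day 60 wells were below all Day 30 wells, and the Day 113 wells overlapped both. MYOCD fell by 0.32 ± 0.11 on the log2 scale from Day 30 to Day 113 (adjusted p = 0.039), a 1.25-fold lower level. That call was lost without any 1 of 7 libraries (Day 30 replicates 1, 2 and 4, Day 60 replicates 1 and 3, Day 113 replicates 2 and 4; adjusted p 0.059 to 0.11), with library totals as the scaling (0.053) and with only the 2 days compared (0.072).

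**Figure D2:**
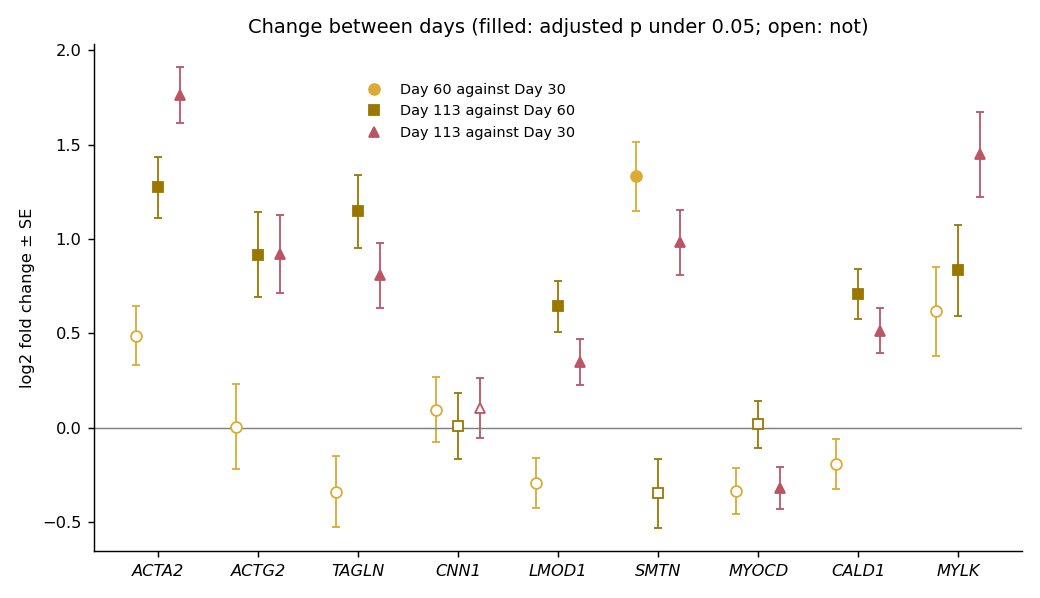
Log2 fold change ± SE (vertical axis) of each gene (horizontal axis) for the 3 pairs of days, with filled symbols for an adjusted p under 0.05. The largest change is that of ACTA2 between Day 30 and Day 113 (1.76), SMTN is the only gene filled for Day 60 against Day 30, and MYOCD is the only filled symbol below 0.

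Levels of different genes were compared per length, as CPM per kb of merged exons in the GENCODE 29 annotation. That length takes in all annotated transcripts of a gene, so the order of genes holds for this measure only. In CPM without a length, CALD1 (mean 435) and TAGLN (336) stood above CNN1 (328) at Day 113. Per kb, CNN1 ranked highest at each day, at 105.75, 113 and 114 CPM per kb. TAGLN was next, at 49.1, 38.8 and 85.8 CPM per kb. ACTA2 stood at 24.9, 34.9 and 84.5 CPM per kb and was rank 6 at Day 30 and rank 3 at Day 60 and Day 113. At Day 30 its wells overlapped those of CALD1 next above it, and neighbours from rank 3 to rank 6 overlapped. At Day 60 its wells overlapped those of TAGLN above and LMOD1 below, so its rank there is not set beyond the spread of the wells. At Day 113 the wells of CNN1 and TAGLN overlapped, as did those of TAGLN and ACTA2, and ACTA2 stood apart from LMOD1 below it (45.3 CPM per kb). MYLK and ACTG2 were lowest at every day, with MYLK at 1.62, 2.47 and 4.41 CPM per kb over merged exons of 22167 bp, a length that takes in all its transcripts and so understates its level.

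**Figure D3:**
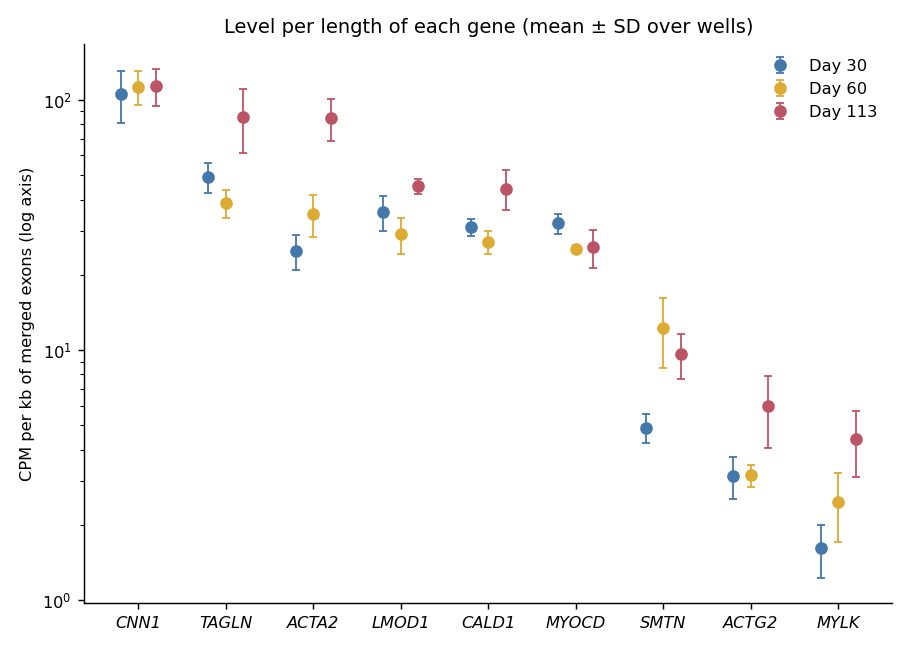
Mean level per length ± SD over wells, in CPM per kb of merged exons (vertical log axis), for each gene (horizontal axis) at the 3 days. CNN1 stays highest, ACTA2 goes from 24.9 to 84.5 CPM per kb, and SMTN, ACTG2 and MYLK lie below the other genes.

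Ratios to the cardiac relative within a library need no scaling. ACTA2 was set against ACTC1, the cardiac actin, whose counts were far higher. Per length, ACTA2 amounted to 2.17, 3.51, 3.62 and 2.10% of ACTC1 at Day 30, to 3.32, 3.93 and 3.67% at Day 60 and to 7.52, 5.74, 5.71 and 7.21% at Day 113. The Day 113 wells did not overlap either earlier day. The log2 count ratio was higher at Day 113 than at Day 30 by 1.24 (two-sided exact permutation p = 0.0286, the smallest that 4 against 4 wells allow; 0.129 after adjustment over 9 tests) and higher than at Day 60 by 0.84 (p = 0.0571 by the same exact test, the smallest for 3 against 4; 0.129 adjusted).

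MYLK against MYLK3, the cardiac myosin light chain kinase, was 2.04, 3.57, 2.68 and 1.81% per length at Day 30, 6.04, 3.03 and 4.62% at Day 60 and 6.87, 2.88, 4.84 and 5.36% at Day 113. Replicate 2 of Day 113 lay within the Day 30 range. The log2 ratio differed by 0.96 between Day 113 and Day 30 (exact permutation p = 0.0571, 0.129 adjusted). For LMOD1 against LMOD2, the cardiac leiomodin, the log2 ratio went from -0.76 ± 0.14 (SD, n = 4) to -0.48 ± 0.30 (SD, n = 3) and -0.16 ± 0.26 (SD, n = 4). The Day 113 wells lay above all Day 30 wells, a difference of 0.60 (exact permutation p = 0.0286, 0.129 adjusted). None of the 9 tests passed 0.05 after adjustment, and 2 reached an unadjusted exact permutation p of 0.0286.

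**Figure D4:**
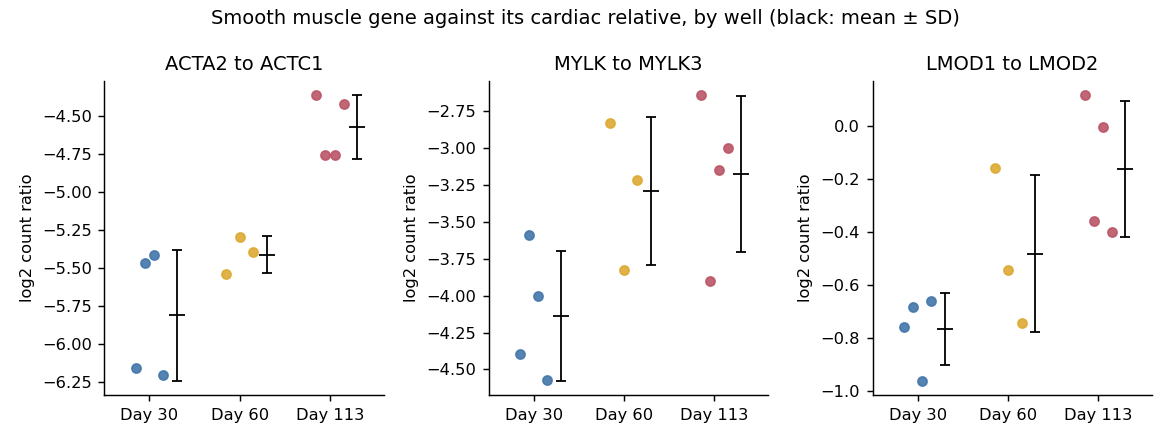
Log2 count ratio (vertical axis) of ACTA2 to ACTC1, MYLK to MYLK3 and LMOD1 to LMOD2 in every well by day (horizontal axis), with black bars for the mean ± SD. For ACTA2 the Day 113 wells lie above all others (mean -4.57), and for MYLK 1 Day 113 well lies within the Day 30 wells.

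Regulators of the pathway did not move one way. Of 26 genes of the SRF, MRTF, TEAD and myocardin-modulating list, 6 rose and 10 fell between Day 30 and Day 113, where 17.3% of all genes rose and 17.2% fell, and the median log2 fold change was -0.18. SRF itself stood at 90.7 ± 14.8 CPM at Day 30 and 169 ± 16.7 CPM at Day 113 (SD, n = 4 each) and rose (log2 0.90 ± 0.13, adjusted p = 7.7e-05), with no overlap between wells. Its cofactors MRTFA (log2 -0.34, adjusted p = 0.0054) and MRTFB (log2 -0.49, adjusted p = 0.014) fell. PRRX1, a mesenchymal homeobox factor, rose by log2 1.70, and WWTR1, the TEAD coactivator TAZ, rose by log2 0.54. HEY2, a Notch target that represses smooth muscle genes, fell by 1.36 on the log2 scale, CSRP2, an SRF-associated LIM protein, fell by 1.08 and KLF5, a factor of dedifferentiated smooth muscle, fell by 1.13.

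Of 32 genes of the contraction apparatus outside the members, 16 rose and 3 fell between Day 30 and Day 113 (median log2 0.31), and 19 rose and 2 fell after Day 60 (median log2 0.48). Of all genes, 17.3% rose and 17.2% fell in the first comparison, and 12.9% rose and 11.1% fell in the second. DES, the intermediate filament protein desmin, stood at 12.0 ± 1.17, 32.6 ± 3.98 and 44.5 ± 7.91 CPM at the 3 days (SD, n = 4, 3 and 4) and rose by log2 1.90 ± 0.14 (adjusted p = 8e-08). MYL9, the regulatory light chain that MYLK phosphorylates, rose by log2 0.81 ± 0.16 (adjusted p = 0.00084). TGFB1I1, a focal adhesion protein, rose by log2 1.13, and SMTNL2, a smoothelin-like gene, fell by 1.24.

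Of 22 contraction signalling genes, 7 rose and 3 fell between Day 30 and Day 113 (median log2 0.19). Over the same days 17.3% of all genes rose and 17.2% fell. The large-conductance potassium channel showed opposite changes in its subunits: KCNMB1, the smooth muscle beta subunit, rose by log2 1.53 ± 0.26 (adjusted p = 0.00033), and KCNMA1, the pore, fell by 3.79 ± 0.61 on the log2 scale (adjusted p = 0.00018), from 12.2 CPM at Day 30 to 0.890 at Day 113. EDNRB, an endothelin receptor, fell by 1.56 and PRKG1, the cGMP-dependent kinase, rose by log2 1.34. Of the 13 measured genes on the list of striated relatives, 6 rose and 1, MYH7, fell between Day 30 and Day 113. The 6 included ACTB and ACTG1, which encode cytoplasmic actins and not striated muscle isoforms.

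Markers of other cell types moved over the same days, and their part in the changes above was not tested. Beside the counts below, 12.9% of all genes rose and 11.1% fell after Day 60. Between Day 30 and Day 113, 17.3% rose and 17.2% fell. Summed over 7 markers, endothelial genes ran from 57.0 to 79.1 CPM at Day 30, 40.1 to 64.9 at Day 60 and 202 to 815 at Day 113. All 7 rose after Day 60 and between Day 30 and Day 113. Over 9 fibroblast markers the sums ran from 2066 to 4576, 1189 to 2061 and 3204 to 7980 CPM, and most of each sum was COL1A1 and COL1A2. After Day 60, 6 of the fibroblast markers rose and 1 fell. Between Day 30 and Day 113, 6 rose and 2 fell, LUM by 1.27 and PDGFRA by 2.15 on the log2 scale. Over the 11 measured mural cell markers, those of vascular smooth muscle and pericytes, the sums ran from 472 to 558, 431 to 471 and 535 to 872 CPM. Between Day 30 and Day 113, 5 of them rose and 1 fell, and after Day 60, 4 rose and 1 fell. Among the mural markers MCAM had the largest gain in CPM, from 78.6 ± 12.6 at Day 30 to 207 ± 60.4 at Day 113 (SD, n = 4 each). It rose by log2 1.40 ± 0.19 (edgeR adjusted p = 3.1e-05). PDGFRB went from 18.8 ± 8.01 to 89.3 ± 33.5 CPM (SD, n = 4 each) and rose by log2 2.25 ± 0.29 (adjusted p = 2.2e-05). The mean mural sum went from 503 to 686 CPM, a smaller gain than that of MCAM and PDGFRB together. Summed without these genes, the other mural markers therefore did not rise. RGS5 stood at 206 and 180 CPM (adjusted p = 0.25) and NOTCH3 at 117 and 69.8 CPM (adjusted p = 0.066). CSPG4, KCNJ8 and CARMN did not pass the test either. COX4I2, at a mean of 0.600 CPM at Day 30, had no count in the 4 Day 113 wells. Over 4 measured visceral smooth muscle markers, ACTG2 among them, the sums ran from 94.1 to 107, 139 to 178 and 206 to 222 CPM. Most of the Day 113 sum came from SYNM (mean 145 CPM) and DES (mean 44.5 CPM). DES is also on the contraction apparatus list above, so the sum does not single out visceral smooth muscle. HHIP stood at 3.79 CPM at Day 30 and 2.31 CPM at Day 113 (adjusted p = 0.12), and NKX3-2 and BARX1 of that list were not measured. Over 6 epicardial markers the sums ran from 101 to 140, 149 to 207 and 188 to 256 CPM, and most of each sum was TBX18 (mean 158 CPM at Day 113). Between Day 30 and Day 113, 2 of them rose (WT1 and TBX18), 1 fell (ALDH1A2) and 3 were not called. After Day 60, 1 rose and 5 were not called.

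Within Day 113, replicate 1 had the highest level of 7 of the 9 smooth muscle genes and the highest sums of mural (872 CPM), fibroblast (7980 CPM) and endothelial markers (815 CPM). Its cardiomyocyte sum was also the highest (31897 CPM against 29232 to 31607 CPM in the other wells), whereas epicardial markers were highest in replicate 2 (256 CPM, 219 CPM in replicate 1) and visceral smooth muscle markers in replicate 3 (222 CPM, 212 CPM in replicate 1). The 9 genes together stood at 2352, 1876, 1981 and 1706 CPM in replicates 1 to 4. Without replicate 1, the same number of genes was called as with it for Day 113 against Day 60 (6) and against Day 30 (8).

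**Figure D5:**
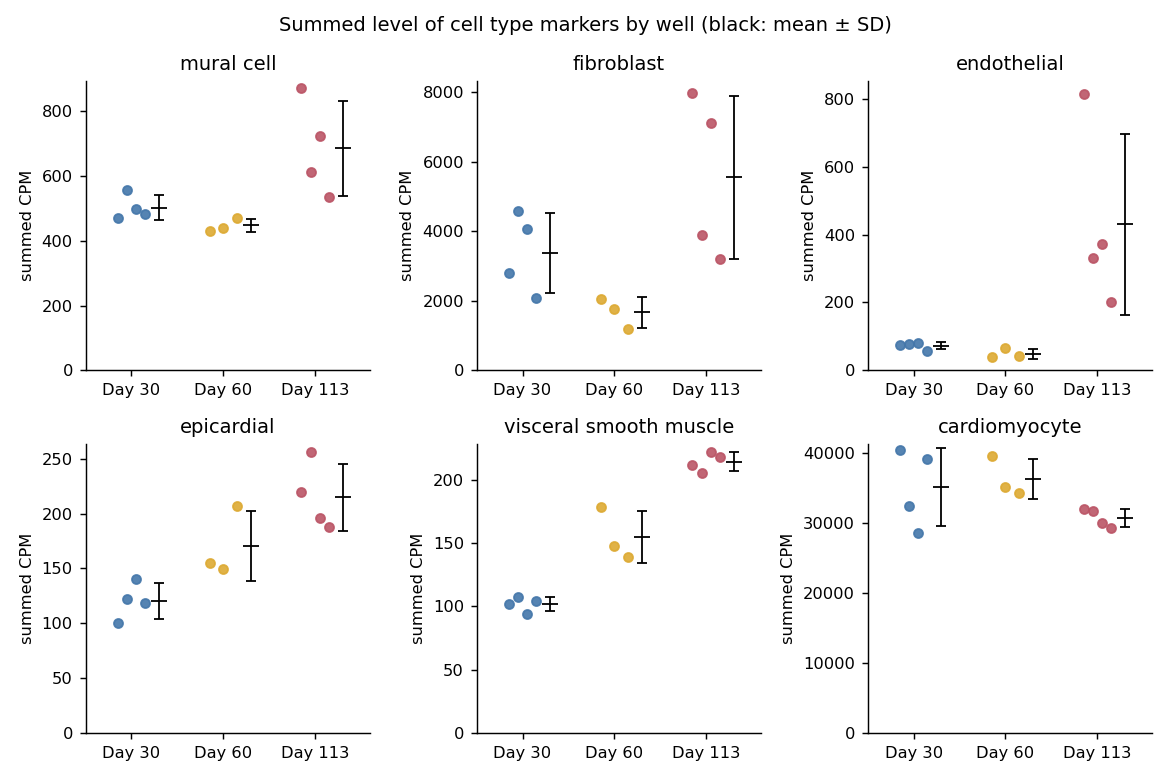
Summed CPM in each well (vertical axis) of each of the 6 cell type marker lists, by day (horizontal axis), with black bars for the mean ± SD. At Day 113 the fibroblast sum ran from 3204 to 7980 CPM and the endothelial sum from 202 to 815 CPM. The cardiomyocyte sum ran from 28516 to 40300 CPM over all days. Its Day 113 wells (29232 to 31897 CPM) all lay below its Day 60 wells (34217 to 39517 CPM).

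The genes with the most similar profiles over the 11 wells were ranked by Pearson r of log2 CPM among 10355 genes with a mean of at least 10 CPM. Those closest to ACTA2 were QSOX2 (r = 0.987), AKTIP (0.980) and PTP4A2 (0.978). TAGLN was closest to VASH1 (0.943), C1S (0.940) and WDR1 (0.938), and CNN1 to PPP1R14C (0.924), C4orf3 (0.901) and GJC1 (0.830). The wells share their day, library scaling and differentiation, so these are descriptions of 11 points.

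Exons of some of these genes overlap another gene on the opposite strand, and whether the counting used strand is not given in the sources used here. ACTA2 shares 516 bp with ACTA2-AS1 and 380 bp with FAS, whose highest day means were 2.70 and 4.80 CPM. TAGLN shares 446 bp with PCSK7 (27.9 CPM), and MYLK shares 133 bp with MYLK-AS1 (1.95 CPM).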

How the data were processed

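The authors deposited whole-number read counts per gene symbol and a TPM table for 11 libraries. The submitters' processing notes name STAR 2.5.3a, featureCounts 2.0.3 and hg38, and the annotation and strand setting are not given in the sources used here. The length implied by dividing the deposited count by the TPM did not repeat between libraries (median Spearman rho -0.002 over 11210 genes in 55 library pairs), so TPM values were not used.

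Counts of all 11 libraries were fitted with edgeR 4.0.16 (quasi-likelihood F-test, R 4.3.3) with day as the only factor, TMM scaling (factors 0.966 to 1.04) and a minimum count of 10, which removed none of 19990 genes. Adjusted p-values are Benjamini-Hochberg over all genes, with a threshold of 0.05. The fit was tested on simulated data. Ratios used log2 counts with a pseudocount of 0.5. Alternatives were DESeq2 1.42.0, limma-voom (limma 3.58.1), other scalings and filters, a replicate block and each library left out. From each list at most 3 genes a direction were named, by size of change between Day 30 and Day 113 at a mean CPM of at least 5, plus defining genes, and a few genes meeting this rule are not reported here. The members and lists were chosen with earlier results of these data known. The libraries had no molecular identifiers. Positions are from GENCODE 29 (GRCh38).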

Additional observations from a re-analysis of the deposited data

Results flagged for a closer look

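The change between Day 60 and Day 113 differed from that between Day 30 and Day 60 in 4 of the 9 smooth muscle genes, by an edgeR test of the difference itself. The difference was log2 1.49 for TAGLN (adjusted p = 0.015), 0.93 for LMOD1 (0.023), 0.90 for CALD1 (0.027) and -1.68 for SMTN (0.0040). The intervals share the Day 60 wells, so a well that is high or low at Day 60 moves both. Without Day 60 replicate 1, or without Day 60 replicate 3, 1 of the 4 differences remained past the threshold, that of SMTN. Of 24 groups of 4 wells tested, none held a well far from the others by Dixon's criterion. With 4 wells a group the criterion can flag only an extreme well, so this does not show that the wells were alike. Day 60 has 3 wells and was not among these groups, so the criterion says nothing about the Day 60 wells.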

How the results depend on the processing

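The number of smooth muscle genes called between Day 30 and Day 60, 1 as reported, was 2 with upper-quartile scaling, with library totals, with DESeq2 and with a filter of at least 1 CPM in at least 3 libraries, ACTA2 being the gene added. It was 4 with only the 2 days compared (SMTN, ACTA2 and MYLK higher, MYOCD lower) and 1 to 3 with each library left out. The number called for a difference between the intervals, 4 as reported, was 1 at an adjusted p under 0.01 and 1 to 4 with each library left out. Counts for the other comparisons stayed within 1.5 times: 5 to 6 between Day 60 and Day 113, 6 to 8 between Day 30 and Day 113 and 7 to 8 over any day, with each library left out. Small log2 differences turned direction. For CNN1 between Day 60 and Day 113 the value was -0.057 with upper-quartile scaling, -0.0070 with DESeq2, -0.013 with the CPM filter and -0.0048 with only the 2 days compared, and for MYOCD it was -0.050 with upper-quartile scaling and -0.0036 with the CPM filter. With each library left out, ACTG2 between Day 30 and Day 60 ran from -0.11 to 0.13, MYOCD between Day 60 and Day 113 from -0.082 to 0.10 and the MYLK difference between intervals from -0.19 to 0.67. CNN1 ran from -0.043 to 0.23 between Day 30 and Day 60, -0.086 to 0.13 between Day 60 and Day 113, -0.034 to 0.24 between Day 30 and Day 113 and -0.28 to 0.15 for the difference between intervals, and the MYLK to MYLK3 ratio between Day 60 and Day 113 from -0.15 to 0.36. The cause of these changes was not tested. With the replicate block the counts were 1, 6, 8, 4 and 8, as without it, and the ACTA2 to ACTC1 ratio differed by 1.24 between Day 113 and Day 30. Well numbers are not said to mark a shared plate: same-numbered wells' deviations correlated at 0.0075 to 0.29 in 10 pairs, 8 of them over 0.1, and 16 of 20 well-and-day combinations correlated best with their own number.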

Other observations

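Of the 32 contraction apparatus genes outside the members, 7 fell between Day 30 and Day 60 and 3 rose, where 5.91% of all genes fell and 4.39% rose. Several were general cytoskeletal relatives that rose again by Day 113. TAGLN2, the broadly expressed transgelin, went from 50.6 ± 17.1 CPM at Day 30 to 10.9 ± 2.69 and 50.8 ± 18.4 CPM at the later days (SD, n = 4, 3 and 4). Its log2 change was -2.22 ± 0.31 (edgeR adjusted p = 0.00034) and then 2.23 ± 0.31 (adjusted p = 0.00014). Non-muscle myosin heavy chain MYH9 went from 663 ± 30.4 to 464 ± 64.6 and 816 ± 190 CPM, and the tropomyosin TPM4 from 225 ± 28.8 to 149 ± 14.6 and 293 ± 65.1 CPM (SD, n = 4, 3 and 4), each called in both intervals. ACTB, beta actin, followed the same course, with a log2 change of -0.55 ± 0.16 (adjusted p = 0.036) and then 1.12 ± 0.16 (adjusted p = 0.00017). CNN2, calponin 2, fell by 0.93 ± 0.11 on the log2 scale (adjusted p = 8e-05) and recovered in part, by log2 0.44 ± 0.11 (adjusted p = 0.0085). TAGLN2, MYH9, TPM4, COL1A2 and ACTB, which belongs to the striated relatives list, were named after their values were seen. So were the markers COL1A1, POSTN, PDGFRA, LUM, MCAM, NOTCH3, CSPG4, KCNJ8, CARMN, SYNM, HHIP, WT1, TBX18 and ALDH1A2. The summed fibroblast markers took a similar course, averaging 3376, 1668 and 5546 CPM at the 3 days. Most of each sum came from 2 fibrillar collagen genes, COL1A1 (means of 1681, 807 and 3076 CPM) and COL1A2 (1414, 623 and 2112 CPM). COL1A2 fell by 1.18 ± 0.34 on the log2 scale (adjusted p = 0.033) and then rose by 1.76 ± 0.34 (adjusted p = 0.0017). The 9 markers did not move as 1: between Day 30 and Day 60, 1 rose, 3 fell and 5 were not called. POSTN rose and PDGFRA fell in both intervals. At Day 30, TAGLN2 stood at 42.0, 70.7, 57.9 and 32.0 CPM in wells whose fibroblast sums were 2805, 4576, 4056 and 2066 CPM, the same order of wells. That order is given for 1 gene, picked after its values were seen, at 1 day. The orders at Day 60 and Day 113, and those of the other genes named here, are not reported. The part of fibroblast markers in these changes was not tested.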
